A study of Homo sapiens with 9 samples.

Results

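The transcripts examined are 10 noncoding RNAs that carry small nucleolar RNAs (snoRNAs) in their introns, followed across vehicle and 2 ligands of a fluorescent RNA aptamer. They are GAS5, SNHG1, SNHG5, SNHG6, SNHG8, SNHG12, SNHG15, SNHG16, ZFAS1 and EPB41L4A-AS1, and they were picked by name from the 57500 genes counted, as noncoding snoRNA hosts whose spliced RNA is known to depend on translation for its decay. All 10 were found, and all are annotated as long noncoding RNAs. No measured value entered the choice of a member by its rule, although the list was drawn up with results of these data known.

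The cells were HEK293T, a line derived from human embryonic kidney that expresses the SV40 large T antigen, and they received 10 µM HBC530, 10 µM MsOc3HBC or the solvent DMSO for 5 h. HBC530 binds the Pepper aptamer without forming a bond, and MsOc3HBC is the derivative designed to attach to it covalently. Poly(A) RNA was sequenced from 3 biological replicates of each treatment, giving 9 libraries. No genetic change or transfection is given in the labels for any of the 3 groups, and all transcripts described here are endogenous.

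Most snoRNAs of human cells are cut out of the introns of longer genes. Box C/D snoRNAs (SNORD) guide methylation of ribosomal RNA and box H/ACA snoRNAs (SNORA) guide its pseudouridylation, while the spliced exons of a noncoding host are exported, engage ribosomes at short reading frames and are broken down by nonsense-mediated decay (NMD). Many hosts, like the messages of ribosomal proteins, begin with a C followed by a run of pyrimidines, the 5′ terminal oligopyrimidine (TOP) tract through which mTOR controls translation, and their RNA is known to build up when translation or NMD is blocked.

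The hosts differ in what they carry. RefSeq places 36 snoRNA genes inside them, of which 28 are named SNORD and 7 SNORA. GAS5, first described as a transcript that accumulates on growth arrest, holds 11, and SNHG1 holds 9. SNHG5 holds 2, SNHG16 and ZFAS1 hold 3 each, and SNHG6 holds 1, so that these 6 are mainly or entirely C/D hosts. SNHG12 holds 4, of which 3 are H/ACA, and SNHG8, SNHG15 and EPB41L4A-AS1 each hold 1 H/ACA snoRNA.

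In the coordinates of the count tables (GRCh38) 5 of the C/D hosts lie at chr1:173863900-173868882 on the minus strand (GAS5), chr11:62851988-62855914 on the minus strand (SNHG1), chr6:85660950-85678736 on the minus strand (SNHG5), chr17:76557766-76565348 on the plus strand (SNHG16) and chr20:49278178-49295738 on the plus strand (ZFAS1). The H/ACA hosts lie at chr1:28578538-28582983 on the minus strand (SNHG12), chr4:118278709-118279823 on the plus strand (SNHG8), chr7:44983023-44986961 on the minus strand (SNHG15) and chr5:112160526-112164276 on the plus strand (EPB41L4A-AS1).

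The start-site windows show whether such a tract stands at the annotated start, and the start used by these cells was not measured. Of the windows, 5 are given, from hosts with a tract at exactly that base and hosts without. The windows of SNHG8 and SNHG16, counted as without, hold pyrimidine runs within a few bases of it. So does that of SNHG1, also counted as without and not given here. Each window runs from 10 bases before the RefSeq start to 20 bases from it (RefSeq, GRCh38.p14), on the strand of the gene, and capitals mark a C at the start together with the unbroken pyrimidines after it, where there are at least 4.
SNHG5 (chr6:85678714-85678743, minus): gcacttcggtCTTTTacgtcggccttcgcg
SNHG12 (chr1:28581854-28581883, minus): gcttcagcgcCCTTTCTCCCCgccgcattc
ZFAS1 (chr20:49278632-49278661, plus): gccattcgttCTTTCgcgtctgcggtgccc
SNHG8 (chr4:118278752-118278781, plus): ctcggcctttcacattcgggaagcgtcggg
SNHG16 (chr17:76557754-76557783, plus): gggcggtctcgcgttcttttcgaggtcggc

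A tract of this kind stood at the start of 3 of the 8 hosts matched to a RefSeq promoter entry, against 4.07% of 35116 promoters. The tract of SNHG12 was 11 bases long and those of SNHG5 and ZFAS1 were 5 bases long. RefSeq's start and that of the count tables lay 2 bases apart for SNHG16, 3 for SNHG5, 53 for SNHG8, 464 for ZFAS1 and 1110 for SNHG12. For ZFAS1 and SNHG12 the window is thus that of 1 annotated start among several. For GAS5, counted as without a tract, the starts lay 163 bases apart. Neither the E-box CACGTG nor the ATF4-type element TGATGNAA, each searched on both strands over the 300 bases of a promoter entry, was found in the 8 entries, and they were found in 7.26% and 3.62% of all entries.

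Because NMD depends on where translation stops, the first short reading frames are shown for SNHG5, SNHG12 and SNHG16. Each is the frame opened by the first AUG of the GENCODE v44 canonical transcript, with its start and stop codons in capitals.
SNHG5: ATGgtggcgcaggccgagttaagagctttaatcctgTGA
SNHG12: ATGgtctcgatctccTGA
SNHG16: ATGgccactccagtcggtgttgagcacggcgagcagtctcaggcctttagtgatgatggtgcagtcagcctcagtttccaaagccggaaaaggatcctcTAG

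In all 10 hosts the first frame ended more than 50 bases before at least 1 exon junction, the arrangement that NMD acts on, and the number of such junctions ranged from 1 to 7. The same held for 72.0% of the 1805 spliced long noncoding RNAs expressed in these cells, the hosts included, so the arrangement is common among such RNAs. The frames of the hosts were 3 to 57 codons long (median 25.5), beside a median of 22 codons over that whole set. That of SNHG12 has 5 codons, that of SNHG5 12 and that of SNHG16 33. The canonical transcript need not be the RNA counted here. It has 6166 bases for SNHG8 and 4526 for ZFAS1, against 923 and 2243 exonic bases in the count tables.

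The libraries held 28056929 to 62205366 counts, and the host with the fewest, EPB41L4A-AS1, still had 335 counts in its lowest library. Replicate 3 of HBC530 and replicate 3 of MsOc3HBC stood apart from the rest. On the first principal component of 18041 genes they lay at 36.9 and 48.8, with the other 7 libraries between -20.3 and -4.28, and they were the shallowest, with 34963314 and 28056929 counts. All 7 markers of HEK293 cells fixed for the check were detected in every library, at 2.09 to 290 CPM, while 7 markers of other cell types reached at most 6 counts, with TYR and INS at 0 throughout. The counts and medians over the hosts, and the medians of the other gene lists against DMSO, are given below with and without both replicate 3 ligand libraries.

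In vehicle-treated cells the hosts spanned a wide range of levels. Levels are given as CPM, the counts of a gene scaled to a common library size with TMM factors, and hosts are compared with each other only per kilobase of exonic length. On that scale SNHG5 was highest at 74.6 ± 6.35 CPM per kb (SD, n = 3), followed by SNHG8 at 45.1 ± 2.14, SNHG16 at 35.4 ± 1.46, GAS5 at 35.1 ± 2.77 and SNHG6 at 29.8 ± 1.23. Below these came SNHG1 at 20.4 ± 1.14 CPM per kb, SNHG15 at 12.8 ± 1.01, ZFAS1 at 11.7 ± 0.323, SNHG12 at 6.86 ± 1.48 and EPB41L4A-AS1 at 2.65 ± 0.152. Each host lay above the next in all 3 DMSO libraries except for SNHG16 with GAS5 and SNHG15 with ZFAS1, whose ranges overlapped. SNHG5 stood at the 96.5th percentile of the genes kept for this ranking and EPB41L4A-AS1 at the 51.5th.

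The snoRNAs themselves were largely outside this measurement. Of 23 snoRNA genes that lie inside the hosts in the count tables, 17 had 0 counts in every library, and each of these 17 lies wholly on annotated exons of its host. Only reads that hit a single gene were counted, so a read on these 17 would count for neither the snoRNA nor the host. Their 0 counts thus do not show that they were absent. The other 6 had counts, and none of them lies wholly on host exons. SNORD99, in SNHG12, was the highest at 43 to 92 counts, and SNORD30, in SNHG1, had 5 to 17. The hosts' values therefore describe the polyadenylated host RNA and say nothing of the mature snoRNAs.

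The sum over the 10 hosts was steady in DMSO and varied among libraries of each ligand. It was 786, 781 and 791 CPM in the 3 DMSO libraries, a mean of 786.18 ± 4.89 (SD, n = 3). In HBC530 it was 787, 718 and 1109 CPM (871 ± 209), and in MsOc3HBC 940, 811 and 1163 CPM (971 ± 178). Replicate 3 was the highest library of both ligands, replicates 1 and 2 of HBC530 lay within or below the DMSO range, and all 3 MsOc3HBC libraries lay above all 3 DMSO libraries. Over replicates 1 and 2 alone the means were 784, 752 and 876 CPM for DMSO, HBC530 and MsOc3HBC. The sum is a description with no test, it is led by SNHG5, SNHG16 and GAS5, and as a share of all counts it was 0.0725 to 0.111%. In bulk RNA, a shift of the RNA per cell and a shift in how many cells carry it cannot be told apart.

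**Figure D1:**
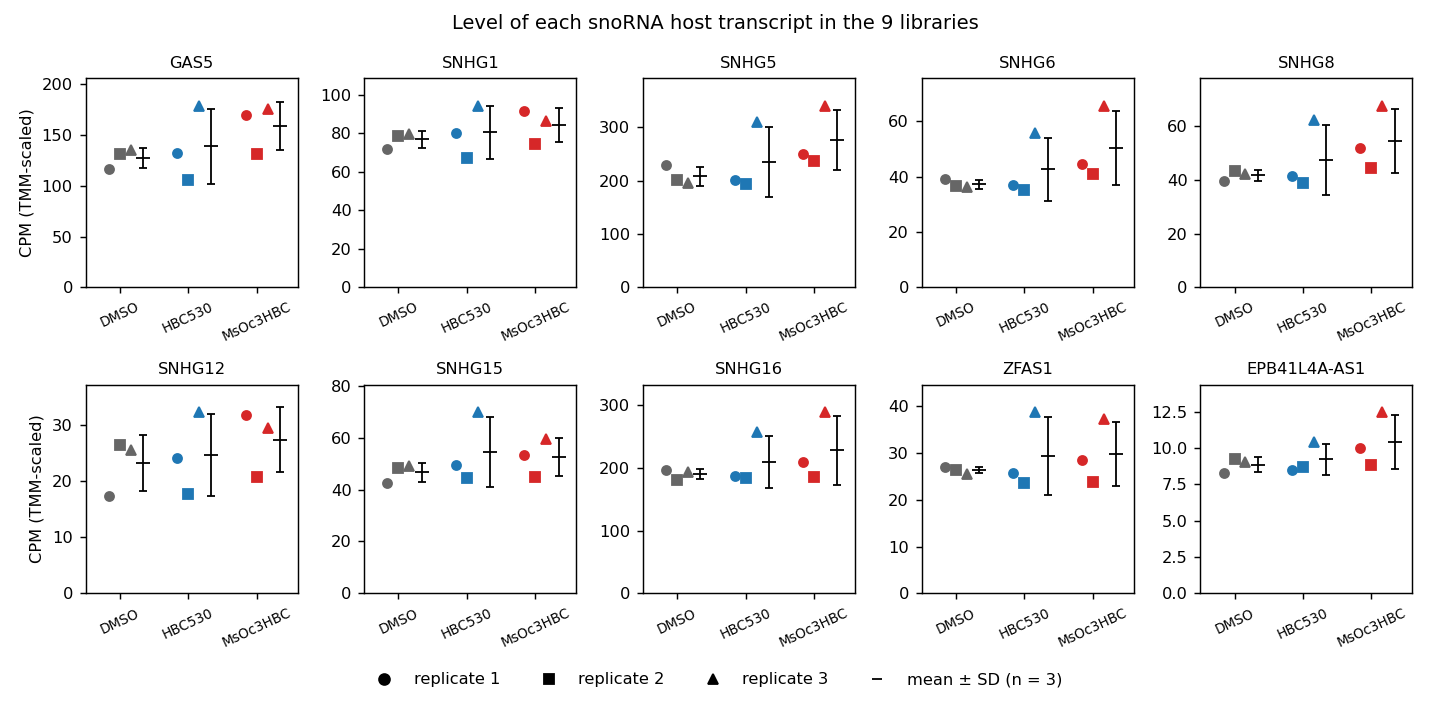
Level of each host in the 9 libraries, in TMM-scaled CPM on a linear axis from 0, by treatment. Circles, squares and triangles are replicates 1, 2 and 3, and the bars are the mean ± SD of 3 libraries. The triangles of both ligands lie highest in most panels, and in SNHG5, SNHG6 and SNHG8 all 3 MsOc3HBC libraries lie above DMSO.

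The question put by the study's design is whether a ligand disturbs the cell's own transcripts, and for HBC530 no host differed from DMSO beyond the spread between replicates. By the quasi-likelihood F test of edgeR, with p-values adjusted over 17684 genes after Benjamini and Hochberg, 0 of the 10 hosts passed an adjusted p of 0.05 (0.017% of all genes did), and 0 had an unadjusted p under 0.05 (5.07% of all genes). The lowest adjusted p among them was 0.751. Log2 fold changes ran from 0.05 (EPB41L4A-AS1) to 0.22 (SNHG15), with a median of 0.15 beside 0.0046 over all genes. All 10 were above 0, as were 51.1% of all genes, and that sign rested on a single library. Without replicate 3 of HBC530, 1 of 10 hosts (SNHG15, at 0.01) was above 0, beside 49.8% of all genes, and the median was -0.05.

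The C/D hosts show this pattern in their levels. GAS5 had 116.0, 131.0 and 135.1 CPM in DMSO and 132.3, 105.8 and 178.8 CPM in HBC530. SNHG5 had 228.8, 200.8 and 195.9 CPM in DMSO and 201.6, 193.7 and 310.4 CPM in HBC530. For both hosts replicate 2 of HBC530 was the lowest of the 6 libraries and replicate 3 the highest, so the groups overlapped, and the fits gave 0.13 (SE 0.162, adjusted p = 0.825) and 0.17 (SE 0.163, adjusted p = 0.769). SNHG16 had 195.9, 181.0 and 192.5 CPM in DMSO and 186.8, 183.4 and 256.2 CPM in HBC530, which the fit put at 0.14 (SE 0.126, adjusted p = 0.764). SNHG1 differed least of the group, at 71.9, 78.6 and 79.8 CPM in DMSO and 80.2, 67.0 and 94.3 CPM in HBC530 (log2 fold change 0.07, adjusted p = 0.874). In SNHG6 and ZFAS1, as in SNHG16, the HBC530 library numbered 3 lay above all 3 DMSO libraries and the other pair lay within or below their range.

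Among the H/ACA hosts replicate 3 of HBC530 was again the highest library. SNHG15 had 42.4, 48.2 and 49.2 CPM in DMSO and 49.3, 44.3 and 69.9 CPM in HBC530 (0.22 on the log2 scale, adjusted p = 0.751). SNHG8 had 39.5, 43.3 and 42.3 CPM in DMSO and 41.4, 38.7 and 62.3 CPM in HBC530 (log2 fold change 0.18, adjusted p = 0.757). SNHG12 was the most variable host in DMSO, with 17.4, 26.5 and 25.6 CPM, and had 24.0, 17.8 and 32.3 CPM in HBC530. In none of the 10 hosts did the HBC530 and DMSO libraries separate with HBC530 higher, which 7.17% of all genes did. The 95% confidence intervals allow for modest changes only, since their upper ends lay below a log2 fold change of 1 in all 10 hosts and the highest was 0.57 (SNHG15).

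With MsOc3HBC, too, no host passed the adjusted test. Of 17514 genes, 0.154% were called against DMSO at an adjusted p under 0.05, and 0 of the 10 hosts were among them. Of the hosts, 4 had an unadjusted p under 0.05 with MsOc3HBC higher, which 6.12% of all genes had, and these were SNHG5, SNHG6, SNHG8 and GAS5. Their adjusted p ranged from 0.350 to 0.403. All 10 hosts were above 0, as were 52.4% of all genes, from 0.13 (SNHG1) to 0.44 (SNHG6), with a median of 0.25 beside 0.01 over all genes.

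SNHG5 carries the tract shown above at its annotated start and holds a pair of C/D snoRNAs. It had 250.7, 237.5 and 340.8 CPM in MsOc3HBC against 228.8, 200.8 and 195.9 in DMSO. Its 3 MsOc3HBC libraries lay above all 3 DMSO libraries. The edgeR log2 fold change stood at 0.41 (SE 0.138, 95% interval 0.11 to 0.71, adjusted p = 0.350), and 0.23 (adjusted p = 0.231) without replicate 3. SNHG6, the host of SNORD87, had 44.4, 41.0 and 65.6 CPM in MsOc3HBC against 39.0, 36.6 and 36.1 CPM in DMSO, with no overlap of the groups. The fit put it at 0.44 (SE 0.157, 95% interval 0.09 to 0.78, adjusted p = 0.373), and 0.20 without replicate 3.

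SNHG8, the host of SNORA24, was another whose groups were apart, with 51.7, 44.2 and 67.6 CPM in MsOc3HBC against 39.5, 43.3 and 42.3 CPM in DMSO. It stood at 0.39 (SE 0.141, adjusted p = 0.381), and 0.20 without replicate 3, where the lowest MsOc3HBC library exceeded the highest DMSO library only narrowly. GAS5 had 169.4, 131.3 and 175.5 CPM in MsOc3HBC against 116.0, 131.0 and 135.1 CPM in DMSO, and replicate 2 lay inside the DMSO range. The estimate was 0.32 (SE 0.123, adjusted p = 0.403), and 0.24 without replicate 3. Groups apart with MsOc3HBC higher were thus seen in 3 of 10 hosts, beside 9.35% of all genes.

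The remaining 6 hosts, like GAS5, overlapped with DMSO. SNHG16 had 209.3, 184.3 and 288.5 CPM in MsOc3HBC (log2 fold change 0.26, SE 0.147, adjusted p = 0.532), and SNHG12 31.7, 20.8 and 29.5 CPM (0.24, SE 0.183, adjusted p = 0.654). Without replicate 3 these values were 0.05 and 0.18. EPB41L4A-AS1, the least abundant, had 10.0, 8.9 and 12.5 CPM against 8.3, 9.2 and 9.1 CPM in DMSO (log2 fold change 0.23, SE 0.136, adjusted p = 0.556), and stood at 0.09 without replicate 3. For ZFAS1, SNHG15 and SNHG1 the log2 fold changes were 0.18, 0.17 and 0.13, with adjusted p from 0.610 to 0.678, and without replicate 3 they were -0.01, 0.07 and 0.11. Without that library 9 of 10 hosts were above 0 (51.7% of all genes), the median was 0.14, and 4 hosts again had an unadjusted p under 0.05 with MsOc3HBC higher (7.33% of all genes). When the filter on low counts was dropped, 2 hosts, SNHG5 and SNHG6, were called higher (adjusted p = 0.0475 and 0.0482), beside 0.41% of all genes. The upper end of the 95% interval stayed below 1 in all 10 hosts, the highest being 0.78 (SNHG6). Both comparisons use the same 3 DMSO libraries, so the values of one are not independent of the other.

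**Figure D2:**
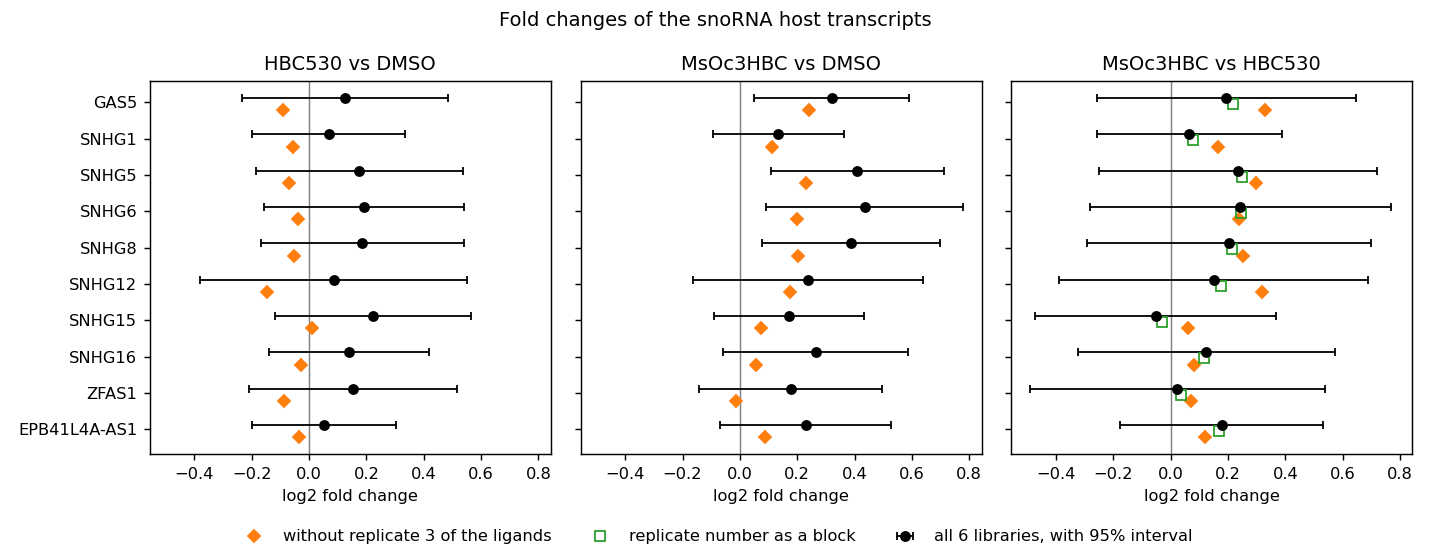
Log2 fold change of each host in the 3 comparisons. Black points with bars are the edgeR estimates with 95% intervals from 6 libraries, orange diamonds the estimates without the ligand libraries numbered 3, and green squares the estimates with the replicate number as a block. The diamonds for HBC530 against DMSO lie at or below 0 except for SNHG15 (0.01), while those for MsOc3HBC against DMSO lie above 0 except for ZFAS1 (-0.01).

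The ligands were compared directly, at the same dose and time. Without regard to replicate numbers, 0 of 10 hosts and 0% of 17397 genes were called, and 0 hosts had an unadjusted p under 0.05 (7.32% of all genes). DESeq2 called 55 of all genes and 0 hosts. Of the hosts, 9 were above 0, as were 53.8% of all genes, with a median log2 fold change of 0.16 beside 0.02 over all genes, and SNHG15 stood at -0.05. The 95% intervals were wide, from -0.49 (ZFAS1) at the lowest to 0.77 (SNHG6) at the highest, so a difference of moderate size in either direction was not resolved by that fit.

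Ligand libraries of the same replicate number deviated alike. Deviations from the group mean correlated across genes between them, at r = 0.167, 0.368 and 0.433 for numbers 1, 2 and 3. Each gene's deviations cancel out within a group, so these values are not independent. A shift shared by the libraries numbered 3 would raise all of them, and whether the numbers mark true pairs was not tested. With the number as a block, 4 of 10 hosts passed with MsOc3HBC higher, beside 4.54% of all genes. SNHG5 differed by 0.25 (adjusted p = 0.00828), SNHG6 by 0.24 (adjusted p = 0.0116), SNHG8 by 0.21 (adjusted p = 0.0290) and GAS5 by 0.22 (adjusted p = 0.0491). In fold terms these are small differences, and the remaining 6 hosts stood between -0.03 (SNHG15) and 0.17 (SNHG12), with adjusted p from 0.156 to 0.813.

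The pairs show where the hosts part. SNHG6 was the most even, with log2 ratios of MsOc3HBC to HBC530 of 0.27, 0.22 and 0.24 for numbers 1, 2 and 3. SNHG5 had 0.31, 0.29 and 0.14, and SNHG8 0.32, 0.19 and 0.12, so that these 3 hosts were higher with MsOc3HBC in 3 of 3 pairs. GAS5 had 0.36, 0.31 and -0.03, with the pair numbered 3 level. SNHG12 had 0.40, 0.23 and -0.13, SNHG1 0.19, 0.15 and -0.13, and SNHG15 0.11, 0.02 and -0.24, with the pair numbered 3 turned the other way in each. SNHG16 (0.16, 0.01 and 0.17) and EPB41L4A-AS1 (0.23, 0.03 and 0.26) were above 0 in each pair without passing the test.

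The comparison was also made with both libraries numbered 3 left out. Over the remaining 4 libraries, all 10 hosts were above 0 (51.3% of all genes), with a median of 0.20. SNHG5 (0.30, adjusted p = 0.00372), SNHG6 (0.24, adjusted p = 0.0374) and SNHG8 (0.25, adjusted p = 0.0486) were called higher, as were 3.16% of all genes, and GAS5 (0.33) had an adjusted p of 0.0534. With the block and a removal of the trend with exonic length together, 3 hosts were called higher (2.99% of all genes), and these were SNHG5, SNHG6 and GAS5.

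**Figure D3:**
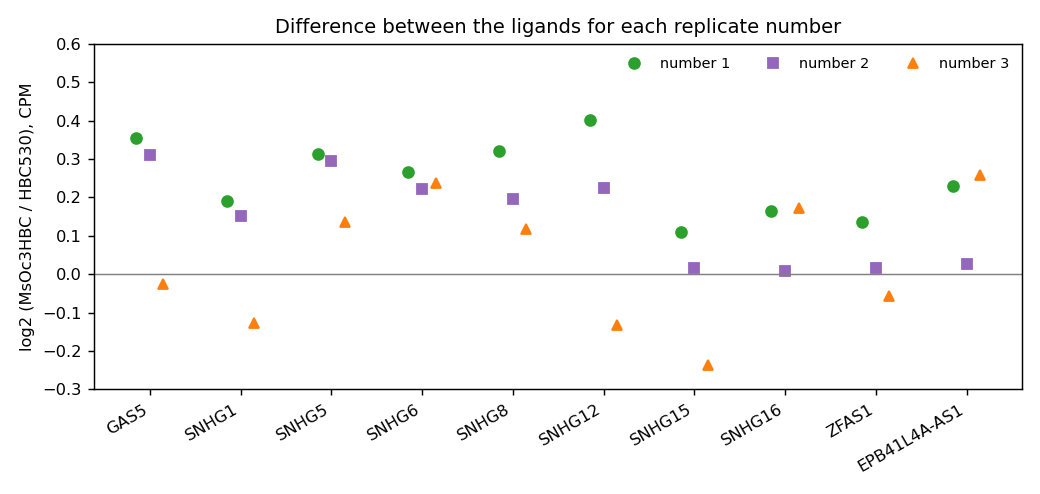
Log2 ratio of MsOc3HBC to HBC530 for each host in the 3 pairs of libraries that share a replicate number, from CPM. SNHG5, SNHG6 and SNHG8 lie above 0.1 in each pair, and the orange triangles (number 3) fall below 0 for GAS5, SNHG1, SNHG12, SNHG15 and ZFAS1.

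Replicate 3 of the ligands lay further from its group in the hosts than in the median gene. The coefficient of variation among DMSO libraries had a median of 5.66% over the hosts and 6.07% over 9401 genes at least as abundant as the lowest host. In HBC530 these were 26.7% and 9.12%, and in MsOc3HBC 20.8% and 9.70%. Replicate 3 exceeded the mean of replicates 1 and 2 in 10 of 10 hosts with HBC530, by 1.21 to 1.57 times (47.9% of all those genes lay above 1), and in 10 of 10 with MsOc3HBC, by 1.04 to 1.54 times (52.4%). In DMSO it did so in 7 of 10 (45.1%), by 0.912 to 1.16 times.

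Exonic length moved with that deviation. In replicate 3 of HBC530 the median log2 deviation ran from 0.25 in the shortest length quintile of genes (up to 3047 bases) to -0.26 in the longest, and in replicate 3 of MsOc3HBC from 0.30 to -0.25. Of the hosts, 4 were in the shortest quintile, 5 in the next and 1, SNHG16, in the middle one. After removal of the length trend in each library the median log2 fold changes of the hosts were 0.10, 0.25 and 0.17 for HBC530 against DMSO, MsOc3HBC against DMSO and MsOc3HBC against HBC530. What part length, depth or handling of these libraries had in the hosts' values was not tested.

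The hosts moved together from library to library. Over the 9 libraries, log2 CPM of 2 hosts correlated at a median Pearson r of 0.853 across 45 pairs of hosts (0.562 to 0.987), and over the 7 libraries without the ligand libraries numbered 3 at 0.656 (0.106 to 0.975). These values describe libraries that share their depth and handling and carry no test. The 5 genes closest to the hosts' mean, of 9276 with at least 10 CPM on average, were RPL13AP5 (r = 0.988, n = 9), SNHG32 (0.980), SRSF11 (0.974), PCLAF (0.967) and PFDN5 (0.967). RPL13AP5 is a pseudogene of RPL13A, itself a snoRNA host, and its counts could be shared with the parent. SNHG32 is another noncoding snoRNA host, SRSF11 a splicing factor, PCLAF a factor that binds PCNA and PFDN5 a subunit of the prefoldin chaperone.

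Other noncoding hosts had values close to those of the 10. Of 19 listed, 17 could be tested, and their median log2 fold change was 0.11 for HBC530 against DMSO, 0.19 for MsOc3HBC against DMSO and 0.10 between the ligands. None passed at an adjusted p under 0.05 in the 3 comparisons, and 4 of the 17 had an unadjusted p under 0.05 with MsOc3HBC above DMSO, beside 6.12% of all genes. SNHG19 stood at 0.50 (SE 0.154, adjusted p = 0.316), SNHG30 at 0.29 (adjusted p = 0.387) and SNHG21 at 0.28 (adjusted p = 0.422), and with HBC530 the smallest p was that of SNHG22 at -0.83, a gene of 0.401 CPM in DMSO. Without the ligand libraries numbered 3 the list's medians against DMSO were -0.02 and 0.08.

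Protein-coding snoRNA hosts, mostly ribosomal proteins and translation factors with TOP messages, stood above DMSO in the ligand libraries numbered 3 and near it in the others. All 29 were tested and 0 passed in either comparison with DMSO or between the ligands. Their medians were 0.13, 0.16 and 0.02 with all libraries, and -0.02, -0.02 and -0.00 without the ligand libraries numbered 3. EIF4A2, a helicase of translation initiation, stood at 0.32 with MsOc3HBC (adjusted p = 0.260), and HSPA8, a heat shock cognate chaperone, at -0.32 (adjusted p = 0.324). RPL3 and RPL4 stood at 0.20 and 0.19 with HBC530, each with an adjusted p of 0.751.

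In the fit without a block the machinery of decay gave no call against DMSO either. Among 15 NMD factors the median log2 fold change was -0.04 with HBC530 and -0.10 with MsOc3HBC, and 0 passed. With MsOc3HBC, UPF3B (0.67, adjusted p = 0.241), UPF3A (0.54, adjusted p = 0.138) and UPF2 (0.32, adjusted p = 0.351), which link the exon junction complex to UPF1, had the smallest p, while 12 of the 15 factors were below 0. Without the ligand libraries numbered 3 the medians of the NMD factors were -0.01 and -0.04. Among 6 genes of the exon junction complex the medians were -0.00 and 0.04 (-0.05 and 0.01 without those libraries), with MAGOH at 0.22 (adjusted p = 0.567). Of 18 protein-coding genes known as NMD targets, 0 passed against DMSO without the block. The medians were 0.01 and 0.02, but -0.05 and -0.03 without those libraries. ATF4, the transcription factor of the integrated stress response, came nearest with 0.63 (adjusted p = 0.0728), followed by GADD45A, a growth arrest gene, with 0.50 (adjusted p = 0.142), both with MsOc3HBC. With the replicate number as a block, 3 of the 18 NMD targets and 2 of the 15 NMD factors were called higher with MsOc3HBC. For MsOc3HBC that fit called 149 of 17514 genes in all, and for HBC530 it called 0 in either list.

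Among the lists, only that of ATF4 targets held genes that passed against DMSO in the fit without a block. At an adjusted p under 0.05, 2 of 16 rose with HBC530, beside 0.017% of all genes, and 6 of 16 rose with MsOc3HBC, beside 0.0799%. None of the 16 passed as lower, the other members did not pass, and the medians were 0.28 and 0.58. With HBC530, 13 of the 16 were above 0, and DDIT4 stood at -0.33 (adjusted p = 0.751), with all its HBC530 libraries below DMSO. With MsOc3HBC all 16 were above 0. CHAC1, which degrades glutathione, rose by 1.49 (SE 0.112, adjusted p = 0.00062) with HBC530 and by 2.65 (SE 0.124, adjusted p = 3.7e-06) with MsOc3HBC. ATF3, a stress-induced transcription factor, rose by 0.74 (adjusted p = 0.0367) with HBC530 and by 0.83 (adjusted p = 0.00339) with MsOc3HBC. SLC7A11, the cystine transporter, rose by 1.58 (adjusted p = 0.00142) and SESN2, an inhibitor of mTORC1, by 0.95 (adjusted p = 0.00198) with MsOc3HBC. Without the ligand libraries numbered 3 the list's medians were 0.19 and 0.48. With the replicate number as a block, 10 of the 16 passed as higher with MsOc3HBC and 2 with HBC530, and 0 as lower. UPF3B and SMG5 stand in both the NMD factor and the NMD target list, and SLC3A2 among the ATF4 targets is also the neighbour of SNHG1 described below.

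Factors of snoRNA assembly and regulators of TOP messages gave no call in these fits. The 10 genes of the snoRNA machinery had medians of 0.10, 0.10 and -0.04, and those against DMSO turned to -0.02 and -0.04 without the ligand libraries numbered 3. NOP58, a core C/D protein, stood at 0.31 with MsOc3HBC (adjusted p = 0.446). The 8 regulators of TOP translation had medians of -0.09, -0.09 and 0.01, and those against DMSO turned to 0.05 and 0.06 without these libraries. EIF4EBP1, the repressor of the cap-binding protein EIF4E, stood at 0.45 with HBC530 (adjusted p = 0.751) and 0.43 with MsOc3HBC (adjusted p = 0.384), and RPTOR, a subunit of mTORC1, at -0.32 with MsOc3HBC (adjusted p = 0.404).

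Between the ligands, the block changed the count of calls in these lists as it did for the hosts. With it, 4.54% of all genes were called higher with MsOc3HBC and 6.9% lower. MsOc3HBC was higher for 10 of 16 ATF4 targets and lower for 0, higher for 6 and lower for 2 of 18 NMD targets, and higher for 3 and lower for 4 of 15 NMD factors. Among the other noncoding hosts 1 of 17 was higher, and among the coding hosts 2 were higher and 2 lower of 29. In the exon junction complex and the snoRNA machinery 1 gene each was higher, and of the TOP regulators 1 was higher and 2 were lower. In the fit of all 6 libraries without the block none of these genes passed between the ligands.

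Of the hosts, 3 start within 2000 bases of a protein-coding gene on the other strand, and none of the partners passed. SLC3A2, the heavy chain of amino acid transporters and an ATF4 target, starts 188 bases from SNHG1. It stood at 0.16 with HBC530 (adjusted p = 0.751) and 0.18 with MsOc3HBC (adjusted p = 0.506), beside 0.07 and 0.13 for SNHG1. ZNFX1, 248 bases from ZFAS1, stood at -0.08 and -0.00 beside 0.15 and 0.18 for ZFAS1. ZBTB37, 800 bases from GAS5, stood at -0.14 and 0.15 beside 0.13 and 0.32 for GAS5.

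Whether reads were counted by strand is not given in the sources used here, and some hosts overlap a gene on the other strand. The remaining C/D host, SNHG6, lies at chr8:66921684-66926398 on the minus strand and shares 365 of its 1247 exonic bases with MCMDC2. EPB41L4A-AS1 shares 1659 of its 3344 exonic bases with EPB41L4A, and ZFAS1 shares 249 of 2243 with ZNFX1. GAS5 shares 42 bases with GAS5-AS1 and SNHG12 shares 8 with TRNAU1AP. For these 5 hosts the counts of both strands may not be separable, whereas SNHG1, SNHG5, SNHG8, SNHG15 and SNHG16 overlap only snoRNA genes.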

How the data were processed

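RNA-seq libraries of HEK293T cells (3 per treatment) were analysed from the authors' gene counts. Per the methods and the submitters' processing notes, the authors used Trimmomatic 0.36 for trimming, STAR 2.5.2b for alignment to GRCh38, and featureCounts (Subread 1.5.2) for counting reads that hit a single gene. The deposited values are raw counts per gene and library. The annotation release, the strand setting and the counting of pairs are not given in the sources used here. Another 2 deposited tables hold a normalised signal, which is each count divided by 1 size factor per library, together with fold changes and p-values of the authors' DESeq2 comparisons. The normalised signal was used for a check only and the comparison columns were not used.

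Counts were tested with edgeR 4.0.16 (quasi-likelihood F test, filterByExpr, TMM scaling) in R 4.3.3, for each pair of treatments over its 6 libraries, with Benjamini-Hochberg adjustment over all genes tested. All 10 hosts passed the filter in each comparison. CPM per library used TMM factors over 9 libraries, and exonic lengths are those of the count tables. Intervals are 95% intervals of the fits. Depth was 28056929 to 62205366 counts per library, and p-values measure the spread between the 3 biological replicates. The fits were tested on simulated data. The simulated counts were independent between libraries, so that test does not cover shared replicate effects, outlying libraries or a length trend.

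The members, gene lists and alternatives were chosen with earlier results of these data known. Genes named are the 10 hosts, head-to-head partners starting within 2000 bases, of each list up to 3 with the smallest adjusted p under 0.05 against DMSO (otherwise genes among the 3 smallest p), and the 5 genes most correlated with the hosts' mean. Also named after their values were seen are genes that overlap a host.

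Replicate numbers were checked as pairs by correlating deviations from group means across genes. The deviations cancel out within a group, so the values of a comparison are not independent, and libraries of unlike number were not correlated. All values were above 0.1 between the ligands (0.167, 0.368 and 0.433), not between HBC530 and DMSO (0.0871, 0.0127 and 0.172) or MsOc3HBC and DMSO (-0.111, 0.00973 and 0.0410), so the blocked fit is given in the report for the ligand comparison. Alternatives were DESeq2 1.42.0, limma-voom (limma 3.58.1), RLE scaling, no filter, a minimum of 10 counts per library, a joint fit of the 9 libraries, the replicate block, a removed trend with exonic length (natural spline, 5 df), both together, each library left out in turn and both ligand libraries numbered 3 left out. Of 57500 gene identifiers, 56410 were found in GENCODE v44. Start windows and snoRNA positions are from RefSeq (GRCh38.p14) and reading frames from GENCODE v44. Some items are not reported here.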

Additional observations from a re-analysis of the deposited data

Results flagged for a closer look

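Of the hosts, 4 differed between the ligands in a test of the difference itself, the edgeR fit with the replicate number as a block, at an adjusted p under 0.05, a fit in which 4.54% of all 17397 genes were called higher with MsOc3HBC. SNHG5 was higher with MsOc3HBC than with HBC530 by 0.25, SNHG6 by 0.24, GAS5 by 0.22 and SNHG8 by 0.21 on the log2 scale. The difference was above 0 in 3 of 3 pairs for SNHG5, SNHG6 and SNHG8 and in 2 of 3 for GAS5. In the fit of all 6 libraries without the block none of the 4 passed. Without both libraries numbered 3, and with no block, the edgeR fit called SNHG5, SNHG6 and SNHG8 (adjusted p = 0.00372, 0.0374 and 0.0486). Whether the replicate numbers mark true pairs was not tested.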

How the results depend on the processing

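No host was called against DMSO under 15 alternatives for HBC530, and under 14 of 15 for MsOc3HBC. Without a filter on low counts, 2 hosts (SNHG5 and SNHG6, adjusted p = 0.0475 and 0.0482) were called with MsOc3HBC, with 250 genes called in all. Between the ligands, 4 hosts were called with the replicate block, 3 with the block and the length trend removed, 3 without both ligand libraries numbered 3, and 0 under the other 13 alternatives.

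With 1 library left out, log2 fold changes for HBC530 against DMSO ranged from -0.0911 to 0.29 for GAS5, -0.0547 to 0.18 for SNHG1, -0.0698 to 0.30 for SNHG5, -0.0402 to 0.31 for SNHG6, -0.0526 to 0.31 for SNHG8, -0.15 to 0.28 for SNHG12, -0.0293 to 0.22 for SNHG16, -0.0884 to 0.29 for ZFAS1 and -0.0367 to 0.11 for EPB41L4A-AS1. The negative values are those without replicate 3 of HBC530, and SNHG12 was also at -0.08 without replicate 1 of DMSO. For MsOc3HBC against DMSO, ZFAS1 ranged from -0.0141 to 0.32. Between the ligands, SNHG1 ranged from -0.0521 to 0.20, SNHG12 from -0.0430 to 0.39, SNHG15 from -0.18 to 0.17, SNHG16 from -0.0806 to 0.30 and ZFAS1 from -0.16 to 0.27, and SNHG15 was at 0.0598 without both libraries numbered 3. The causes were not tested.

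The hosts' median for HBC530 against DMSO was 0.08 to 0.29 under every alternative except that without HBC530 replicate 3 (-0.05). For MsOc3HBC against DMSO it was 0.14 to 0.40 and between the ligands 0.03 to 0.34.

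Calls over all genes moved more. For HBC530 against DMSO, 3 genes were called with edgeR, 24 with DESeq2, 5 with limma-voom or with all 9 libraries, 52 without a filter, 11 with the length trend removed, 23 with the block as well and 6 without replicate 3. For MsOc3HBC against DMSO, 27 were called, with 151 by DESeq2, 49 with the length trend removed, 106 with the block as well and 76 without replicate 3. Between the ligands, 0 were called, with 55 by DESeq2, 12 without a filter, 4 with all 9 libraries, 2 with the length trend removed, 1990 with the block, 1735 with block and length trend and 1635 without both libraries numbered 3. With 1 library left out, 2 to 6 genes were called for HBC530, 6 to 76 for MsOc3HBC and 0 between the ligands. In the DMSO comparisons the replicate block called 16 and 149 genes and no host. Whether a shared number marks a true pair was not tested in any comparison. Each host had at least 335 counts in every library, and the part of depth in the hosts' values was not tested.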
